A study of Mus musculus with 6 samples.

Results

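Transcripts of 10 genes that encode granule, cytosolic, secreted and surface proteins of neutrophils were read across aortas of mice that lacked soluble ST2 and of their littermates. They are Mpo, Elane, Ngp, Camp, Lcn2, S100a8, S100a9, Retnlg, Ly6g and Csf3r. They were picked by gene symbol as a panel of neutrophil transcripts, and each symbol matched a single row of the deposited table, so that 10 of 56748 genes are described. The tissue was whole aorta from 6-month-old Apoe -/- mice given angiotensin II by osmotic minipump for 28 days, a mouse model of aortic disease. In 1 group, soluble ST2 was also knocked out (sST2-KO, 3 mice). The other group was wild-type for soluble ST2 (WT, 3 littermates), so that, by the labels, apolipoprotein E deficiency and angiotensin II are shared by all 6 mice. Soluble ST2 is the secreted decoy receptor for the cytokine IL-33. How its deletion was made is not given in the sources used here. RNA was sequenced from poly-A selected libraries, and the data are raw counts per gene.

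Neutrophils are short-lived phagocytes that mature in the bone marrow and reach inflamed vessels through the blood. Their granule genes are transcribed in waves: the primary granule enzymes in promyelocytes, then the secondary granule proteins in myelocytes, and both are largely silent by the time the cell leaves the marrow, although the proteins stay in the granules. Transcripts of S100a8, S100a9, Csf3r and Retnlg, by contrast, remain plentiful in circulating cells. In angiotensin II-infused, Apoe-deficient mice, neutrophils are among the leukocytes known to enter the aortic wall.

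Library totals were 15615658 to 17988552 counts. Il1rl1, the gene that encodes ST2, had 2.39, 2.82 and 4.86 CPM in sST2-KO replicates 1 to 3, against 2.81, 9.49 and 4.35 CPM in WT replicates 1 to 3. These counts add the soluble and membrane forms, so they check the genotype weakly. CPM here stands for the count scaled to the library's TMM-normalized size. Smooth muscle markers were plentiful in every library, with Acta2 at 1644 to 6588 CPM. Of the 6 libraries, 3 stood apart. Airway epithelium markers summed to 50379 CPM in sST2-KO replicate 2 and to 24.9 to 74.4 CPM in the other 5 libraries. Hepatocyte markers summed to 13806 CPM in WT replicate 3 and to 161 to 328 CPM in the other 5. WT replicate 2 had 37.8% of its counts on mitochondrially encoded genes, against 7.08 to 23.7% in the other 5 libraries, and the fewest genes with a count, 20059 against 21431 to 24973. Apoe had 172, 86.7 and 145 CPM in sST2-KO replicates 1 to 3, against 15.1, 11.6 and 507 CPM in WT replicates 1 to 3. These Apoe counts differ widely among mice that are all labelled as deficient, and what they say of that label was not tested.

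Neutrophil transcripts were scarce in these aortas, and their spread between mice of 1 genotype was wide. All 10 together took 0.00294 to 0.00981% of the counts in sST2-KO libraries and 0.00761 to 0.0315% in WT libraries. Their summed level was 93.7, 86.3 and 30.5 CPM in sST2-KO replicates 1 to 3, against 198, 97.7 and 303 CPM in WT replicates 1 to 3. Each sST2-KO library lay below each WT library, and the nearest were sST2-KO replicate 1 and WT replicate 2. The means were 70.2 ± 34.5 CPM in sST2-KO and 199.8 ± 103 CPM in WT (SD, n = 3 each), a ratio of 0.351. That separation rested on Lcn2. Without Lcn2 the sums were 72.3, 21.4 and 12.7 CPM in sST2-KO replicates 1 to 3, against 88.4, 28.5 and 195 CPM in WT replicates 1 to 3. The groups then overlapped, with sST2-KO replicate 1 above WT replicate 2, and the ratio of means was 0.340. It was 0.163 without sST2-KO replicate 1, 0.246 without WT replicate 2, 0.602 without WT replicate 3 and 0.718 without WT replicate 3 and sST2-KO replicate 2 together. In whole tissue, the number of neutrophils, the RNA per neutrophil and RNA of these genes from other cells cannot be told apart.

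The order of levels per length depended on the mice included. Averaged over the 6 libraries, S100a9 had 41.2 ± 42.0 CPM per kilobase of gene length, Lcn2 24.9 ± 15.2 and S100a8 21.0 ± 20.8 (SD, n = 6). Ngp followed at 5.58 ± 11.3, Csf3r at 5.34 ± 3.09 and Retnlg at 4.28 ± 2.54 CPM per kilobase. Camp had 2.68 ± 5.10, Elane 0.980 ± 1.80, Mpo 0.573 ± 1.29 and Ly6g 0.118 ± 0.147 CPM per kilobase. Neighbours in this order did not differ beyond their spread, and the step from S100a8 down to Ngp was the one seen in 6 of 6 libraries. Ngp exceeded Csf3r in 1 of 6 libraries, WT replicate 3, and its rank rests on that mouse. By group medians, Retnlg had 3.93 and Csf3r 2.51 CPM per kilobase in sST2-KO, whereas Retnlg had 4.28 and Csf3r 8.39 CPM per kilobase in WT. Likewise Camp had 0.326 and Ngp 0.163 CPM per kilobase in sST2-KO, whereas Camp had 0.291 and Ngp 0.406 CPM per kilobase in WT. Each median is the value of a single library, and those of Camp and Ngp rest on 3 to 9 counts. Library by library the order did not follow the group. Retnlg was below Csf3r in sST2-KO replicate 1 (3.93 against 6.25 CPM per kilobase) and above it in WT replicate 3 (8.55 against 8.39).

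**Figure D1:**
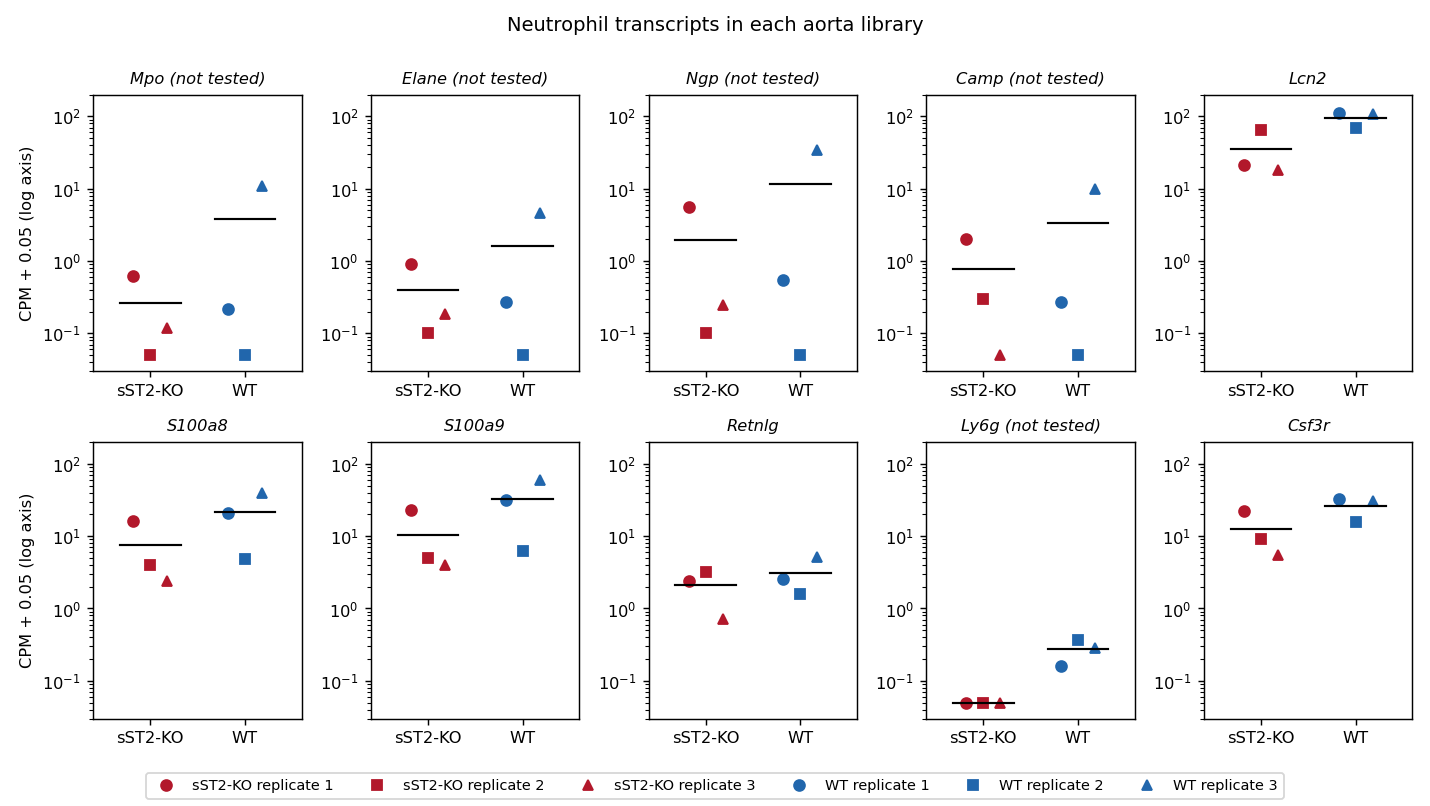
Level of each of the 10 neutrophil transcripts in every library, as CPM plus 0.05 on a log axis, with sST2-KO libraries on the left and WT libraries on the right of each panel; bars are group means. Mpo, Elane, Ngp and Camp are high in WT replicate 3, at 4.53 to 34.6 CPM, and next highest in sST2-KO replicate 1, whereas Lcn2 is lower in each sST2-KO library than in each WT library.

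Of the 10 genes, 5 had enough counts for the test across all genes. Lcn2, S100a8, S100a9, Retnlg and Csf3r reached the minimum level in 6 of 6 libraries, while Mpo, Elane, Ngp and Camp reached it in 1 or 2 and Ly6g in 0, where 3 were needed. None of the 5 was called in either direction at an adjusted p of 0.05 by edgeR's quasi-likelihood test, where the share of 16377 tested genes called was 0% higher and 0% lower in sST2-KO. At an unadjusted p under 0.05, 1 of the 5 was lower (Lcn2), against 5.95% of all tested genes lower and 5.08% higher. For 1 of the 5, again Lcn2, each sST2-KO library was lower than each WT library, as it was for 10% of all tested genes; 9.09% were higher without overlap. All 5 log2 changes were negative, beside 46.5% of all tested genes, and their median was -1.46, beside 0.042 for all tested genes. DESeq2 called 0 of the 5, while it called 1.47% of genes lower and 0.383% higher. Without WT replicate 3 the median of the 5 was -0.85, and without that library and sST2-KO replicate 2 it was -0.52.

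Mpo and Elane encode myeloperoxidase, which makes hypochlorous acid, and neutrophil elastase, a serine protease of the primary granule. Mpo (chromosome 11, 87684407 to 87695239, mm39) had 10, 0 and 1 counts in sST2-KO replicates 1 to 3, against 3, 0 and 184 counts in WT replicates 1 to 3. Elane (chromosome 10, 79722081 to 79724049) had 15, 1 and 2 counts in sST2-KO, against 4, 0 and 76 in WT. For both genes WT replicate 3 was far above the rest, sST2-KO replicate 1 came next, and the groups overlapped. In normalised terms, Mpo averaged 0.212 ± 0.311 CPM in sST2-KO and 3.71 ± 6.29 CPM in WT (SD, n = 3 each). Elane averaged 0.345 ± 0.441 CPM in sST2-KO and 1.58 ± 2.56 CPM in WT (SD, n = 3 each). Among the WT libraries, replicate 2 had 0 counts of both, which allows up to 0.239 CPM.

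Ngp and Camp belong to the secondary granule. Ngp is neutrophilic granule protein, a cathelicidin relative, and Camp encodes cathelicidin, whose cleaved peptide kills bacteria. They lie 570 kb apart on chromosome 9. Ngp (110248815 to 110252080, mm39) had 97, 1 and 3 counts in sST2-KO replicates 1 to 3, against 9, 0 and 581 in WT replicates 1 to 3. Camp (109676447 to 109678685) had 34, 5 and 0 counts in sST2-KO, against 4, 0 and 164 in WT. The order of libraries was as for Mpo and Elane at the top: WT replicate 3, then sST2-KO replicate 1. Prtn3 and Ctsg, which encode other granule proteases, did not have sST2-KO replicate 1 second. Prtn3 had 33, 16 and 28 counts in sST2-KO replicates 1 to 3, against 111, 7 and 148 in WT replicates 1 to 3. Ctsg had 1, 0 and 0 counts in sST2-KO, against 0, 6 and 31 in WT. Ngp averaged 1.92 ± 3.11 CPM in sST2-KO and 11.7 ± 19.9 CPM in WT, and Camp averaged 0.726 ± 1.05 CPM in sST2-KO and 3.33 ± 5.58 CPM in WT (SD, n = 3 each). For Mpo, Elane, Ngp and Camp the exact two-sided permutation p over the 20 assignments of libraries was 0.7 to 0.9 (adjusted over the 5 untested genes, 0.875 to 0.9). With 3 libraries a group that test cannot go below 0.1. WT replicate 3 is also the library with hepatocyte transcripts, and their part in its granule counts was not tested. Without that library the direction of all 4 differences turned. Mpo then averaged 0.212 CPM in sST2-KO (n = 3) and 0.0827 CPM in WT (n = 2), and Elane 0.345 CPM in sST2-KO and 0.110 CPM in WT. Ngp averaged 1.92 CPM in sST2-KO and 0.248 CPM in WT, and Camp 0.726 CPM in sST2-KO and 0.110 CPM in WT. These WT means are near or below what 3 counts stand for, and the sST2-KO means rest on replicate 1.

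The promoters of these 4 granule genes are shown because their transcripts appeared together, in the same pair of libraries, and the promoter of Lcn2 beside them because it did not follow that pattern. Each run is the 250 bases before the start of transcription, 5′ to 3′ on the gene's strand, from RefSeq on build GRCm38.p6 (not the mm39 of the counts). Capitals mark letters of 2 motifs searched on both strands, TTGCNNAA as read by C/EBP factors and GAGGAA as read by PU.1, both of which drive myeloid genes.
Mpo promoter, chr11:87793534-87793783, plus strand: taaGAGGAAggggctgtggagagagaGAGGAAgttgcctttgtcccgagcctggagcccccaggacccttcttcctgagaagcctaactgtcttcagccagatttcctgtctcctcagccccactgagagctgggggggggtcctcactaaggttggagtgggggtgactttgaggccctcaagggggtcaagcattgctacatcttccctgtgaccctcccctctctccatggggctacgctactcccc
Elane promoter, chr10:79886062-79886311, plus strand: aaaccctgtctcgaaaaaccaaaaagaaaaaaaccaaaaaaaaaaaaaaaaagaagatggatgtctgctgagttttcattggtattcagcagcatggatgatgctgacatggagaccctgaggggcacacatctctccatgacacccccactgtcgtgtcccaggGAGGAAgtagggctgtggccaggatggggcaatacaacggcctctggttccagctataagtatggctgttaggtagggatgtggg
Ngp promoter, chr9:110419558-110419807, plus strand: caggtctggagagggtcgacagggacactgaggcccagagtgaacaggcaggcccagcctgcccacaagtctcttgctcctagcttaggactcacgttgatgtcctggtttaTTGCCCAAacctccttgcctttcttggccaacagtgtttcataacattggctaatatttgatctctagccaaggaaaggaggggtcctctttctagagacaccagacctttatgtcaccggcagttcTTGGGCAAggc
Camp promoter, chr9:109849457-109849706, minus strand: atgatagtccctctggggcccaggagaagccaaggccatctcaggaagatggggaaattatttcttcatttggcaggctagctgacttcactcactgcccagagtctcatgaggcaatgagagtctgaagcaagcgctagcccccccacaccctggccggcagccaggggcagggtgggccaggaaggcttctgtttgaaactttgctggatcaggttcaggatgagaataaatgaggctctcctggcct
Lcn2 promoter, chr2:32387740-32387989, minus strand: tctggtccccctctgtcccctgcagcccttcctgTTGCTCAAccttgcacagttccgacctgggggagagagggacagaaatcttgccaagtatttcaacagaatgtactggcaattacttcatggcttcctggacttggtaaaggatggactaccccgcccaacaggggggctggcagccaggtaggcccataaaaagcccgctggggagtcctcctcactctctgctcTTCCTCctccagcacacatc

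Ngp held TTGCNNAA at a pair of places, beginning 138 and 11 bases before the start, while Mpo held GAGGAA at a pair of places and Elane at a single one. Neither motif occurred in these 250 bases of Camp, and Lcn2 held one of each. All 10 genes matched the promoter table by symbol, but for S100a8, Retnlg and 1 of the Ly6g starts the bases after the listed start were not found near the 5′ end of an annotated transcript. Over the 10, 5 had a TTGCNNAA match (Lcn2, Ly6g, Ngp, Retnlg and S100a9), beside 9.56% of 32851 promoters of the same length. For GAGGAA it was 6 of 10 (Csf3r, Elane, Lcn2, Ly6g, Mpo and S100a8), beside 23.3%. Over the 8 genes with a start found in a transcript, 4 had TTGCNNAA and 5 had GAGGAA. Ly6g has a pair of listed starts, and a match in either was counted.

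Counts of the granule genes were set against S100a8 and S100a9, which mark mature cells too, to compare libraries without scaling. What cells other than neutrophils add to the S100a8 and S100a9 counts was not tested. Mpo, Elane, Ngp and Camp made up 18.7% of the counts of these 6 genes in sST2-KO replicate 1 (156 of 834 counts, exact Clopper-Pearson 95% interval 16.1 to 21.5%). They made up 3.76% in sST2-KO replicate 2 (7 of 186 counts, interval 1.53 to 7.60%) and 6.00% in sST2-KO replicate 3 (6 of 100 counts, interval 2.23 to 12.6%). The share was 2.08% in WT replicate 1 (20 of 962 counts, interval 1.27 to 3.19%), 0% in WT replicate 2 (0 of 138 counts, interval 0 to 2.64%) and 37.5% in WT replicate 3 (1005 of 2681 counts, interval 35.6 to 39.3%). So each group held 1 library with a high share and 2 with a low one, and these intervals, which cover counting error alone, did not overlap between the high and low libraries. S100a8 and S100a9 summed to 38.5 CPM in sST2-KO replicate 1 and to 51.9 CPM in WT replicate 1, although the granule counts were 156 in that sST2-KO library and 20 in that WT library.

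The make-up of the 4 granule genes could be read in 3 libraries, and the intervals of Ngp, Camp and Elane overlapped among them. Ngp was 62.2% of their counts in sST2-KO replicate 1 (interval 54.1 to 69.8%) and 57.8% in WT replicate 3 (interval 54.7 to 60.9%). Camp was 21.8% (interval 15.6 to 29.1%) in that sST2-KO library and 16.3% (interval 14.1 to 18.8%) in that WT library, and Elane was 9.62% (interval 5.48 to 15.4%) in that sST2-KO library and 7.56% (interval 6.00 to 9.37%) in that WT library. Mpo was 6.41% in sST2-KO replicate 1 (interval 3.12 to 11.5%) and 18.3% in WT replicate 3 (interval 15.96 to 20.8%), and these intervals did not overlap. WT replicate 1, with 20 counts, had 45% Ngp, 20% Camp, 20% Elane and 15% Mpo, and its Mpo interval of 3.21 to 37.9% overlapped both others. This compares libraries, not the genotypes.

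**Figure D2:**
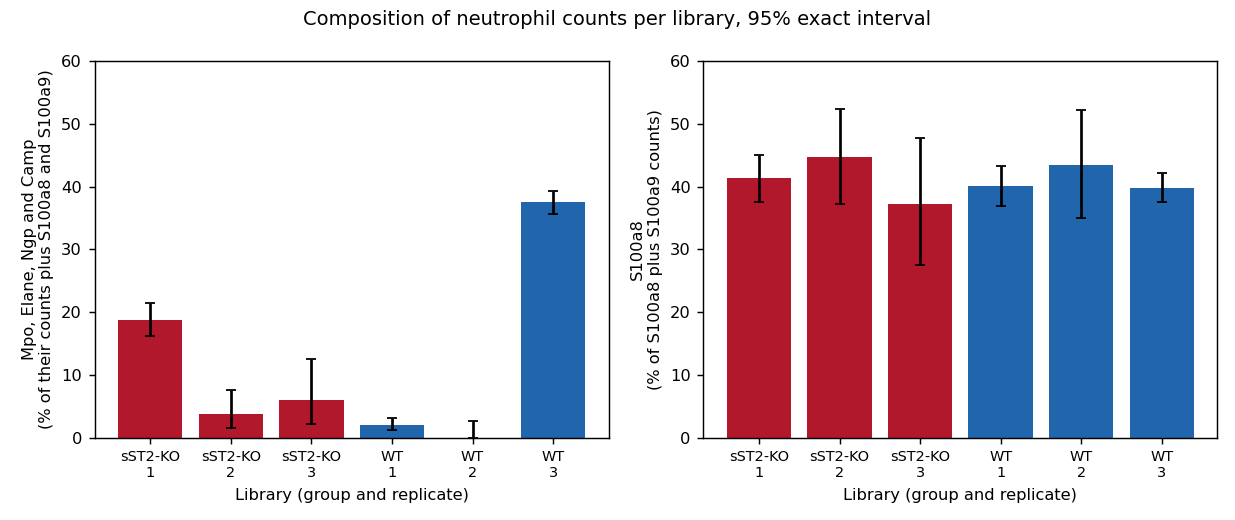
Left, share of Mpo, Elane, Ngp and Camp in their counts plus those of S100a8 and S100a9; right, share of S100a8 in the counts of S100a8 plus S100a9; bars are libraries, sST2-KO left of WT, with 95% exact intervals. The granule share is 18.7% in sST2-KO replicate 1 and 37.5% in WT replicate 3 but at most 6.00% elsewhere, while the S100a8 share stays between 37.2 and 44.7% in every library.

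S100a8 and S100a9 encode the subunits of calprotectin, a calcium- and zinc-binding complex that fills the neutrophil cytosol and acts as a danger signal once released. They lie 22.6 kb apart on chromosome 3. S100a8 had 15.9, 3.96 and 2.33 CPM in sST2-KO replicates 1 to 3, against 20.8, 4.78 and 39.8 CPM in WT replicates 1 to 3. S100a9 had 22.6, 4.90 and 3.93 CPM in sST2-KO replicates 1 to 3, against 31.2, 6.22 and 60.1 CPM in WT replicates 1 to 3. In both genes sST2-KO replicate 1 was above WT replicate 2, so the groups overlapped. The log2 change was -1.56 (SE 0.92) for S100a8 and -1.63 (SE 0.93) for S100a9, and neither passed (edgeR adjusted p = 0.528 and 0.522). S100a8 took 37.2 to 44.7% of the pair's counts in sST2-KO libraries and 39.9 to 43.5% in WT libraries, and the 6 intervals overlapped one another. Single libraries moved both changes: without sST2-KO replicate 1 they were -2.79 and -2.88, without WT replicate 2 they were -2.05 and -2.14, and without WT replicate 3 they were -0.80 and -0.85.

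Lcn2 encodes lipocalin 2, which starves bacteria by binding their siderophores, and had the lowest p of the 5 tested genes. It is stored in secondary granules, but epithelia, hepatocytes and macrophages are also known to make it. Lcn2 (chromosome 2, 32274645 to 32278264, mm39) had 21.4, 65.0 and 17.8 CPM in sST2-KO replicates 1 to 3, against 110, 69.1 and 108 CPM in WT replicates 1 to 3. Each sST2-KO library was below each WT library, by a narrow margin between sST2-KO replicate 2 and WT replicate 2. The means were 34.7 ± 26.2 CPM in sST2-KO and 95.6 ± 23.0 CPM in WT (SD, n = 3 each), with -1.46 (SE 0.51) as the log2 change. It did not pass by edgeR (adjusted p = 0.435) or by DESeq2 (adjusted p = 0.123). limma-voom with sample quality weights called it (log2 change -2.18, adjusted p = 0.0425, against 0.123 to 0.690 over the other alternatives). The highest sST2-KO value came from the library with airway transcripts, and their part in it was not tested; without that library the log2 change was -2.29 (edgeR adjusted p = 0.194). Lcn2 did not follow the granule genes: WT replicate 2, with 0 counts of Mpo, Elane, Ngp and Camp, had 867 counts of Lcn2.

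Csf3r encodes the receptor for granulocyte colony-stimulating factor, the main growth factor of neutrophils. Csf3r (chromosome 4, 125918343 to 125938233, mm39) had 22.6, 9.05 and 5.39 CPM in sST2-KO replicates 1 to 3, against 32.7, 15.7 and 30.3 CPM in WT replicates 1 to 3. The overlap again was sST2-KO replicate 1 above WT replicate 2, the library with the high mitochondrial share, whose part was not tested. The log2 change was -1.09 (SE 0.55, edgeR adjusted p = 0.491), and without sST2-KO replicate 1 it was -1.86. Retnlg encodes resistin-like gamma, a small secreted protein made by mature mouse neutrophils. Retnlg (chromosome 16, 48692984 to 48694859) had 2.33, 3.12 and 0.665 CPM in sST2-KO replicates 1 to 3, against 2.54, 1.51 and 5.07 CPM in WT replicates 1 to 3. Here the highest sST2-KO library was the one with airway transcripts, whose part was not tested, and the groups overlapped widely. The log2 change was -0.57 (SE 0.68, edgeR adjusted p = 0.732), without WT replicate 3 it was 0.0031, and without sST2-KO replicate 2 it was -1.02.

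Ly6g encodes the GPI-anchored surface antigen by which mouse neutrophils are usually identified. Ly6g (chromosome 15, 75027089 to 75030975, mm39) had 0, 0 and 0 counts in sST2-KO replicates 1 to 3, against 2, 4 and 4 counts in WT replicates 1 to 3. The groups do not overlap, but the WT values of 0.110 to 0.319 CPM are about the level that a count of 0 allows in the sST2-KO libraries, 0.148 to 0.200 CPM (3 counts), so a difference is not resolved at this depth. The exact permutation p was 0.1, the smallest this design allows (0.5 adjusted over the 5 untested genes). Without a low-count filter edgeR gave Ly6g an unadjusted p of 0.0379 and an adjusted p of 0.572. In that fit 0 of the 10 genes passed, and their median log2 change was -1.91.

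**Figure D3:**
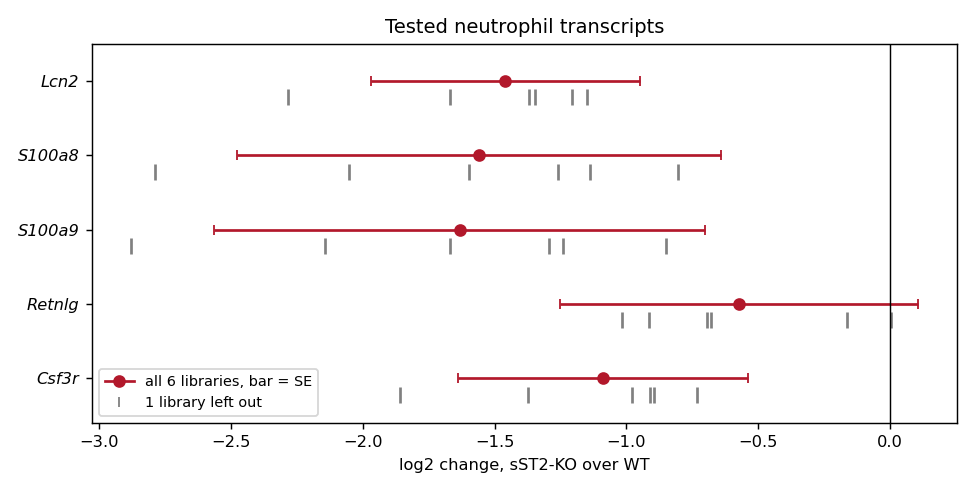
log2 change (sST2-KO over WT) of the 5 tested neutrophil transcripts; circles with bars are the estimate and SE from all 6 libraries, and grey ticks are estimates with 1 library left out. All 5 estimates are negative, from -0.57 to -1.63, and the ticks of S100a8 and S100a9 spread from -0.80 to -2.88 with the library left out.

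Other granule genes went in both directions. In a list of 20 further granule and granule-membrane genes, 16 were tested, 12 had negative log2 changes and 0 passed in either direction in edgeR. The median was -0.91, or -0.52 without WT replicate 3 and sST2-KO replicate 2. Of the 16, 5 were lower without overlap and 0 were higher, beside 10% and 9.09% of all tested genes. WT replicate 3 was the highest library for 9 of the 20 and for 7 of the 10 neutrophil transcripts, beside 8.78% of all tested genes. These sets are unlike, since the 20 and the 10 include genes below the minimum level for the test, among them Mpo, Elane, Ngp and Camp. Of the tested neutrophil transcripts, S100a8, S100a9 and Retnlg were highest in WT replicate 3, and Lcn2 and Csf3r in WT replicate 1. Olfm4, a secondary granule protein of a neutrophil subset, had 0.682, 0 and 0 CPM in sST2-KO replicates 1 to 3, against 0.110, 0 and 9.30 CPM in WT replicates 1 to 3. Ltf, which encodes lactoferrin of the secondary granule, went the other way, with 3.58, 2074 and 0.0665 CPM in sST2-KO replicates 1 to 3, against 0.110, 1.51 and 22.4 CPM in WT replicates 1 to 3 (log2 change 6.43, SE 3.20, edgeR adjusted p = 0.488). Pglyrp1, a peptidoglycan-binding granule protein, had 2.61, 278 and 1.93 CPM in sST2-KO replicates 1 to 3, against 2.92, 0.0797 and 5.78 CPM in WT replicates 1 to 3 (log2 change 4.97, SE 2.09, edgeR adjusted p = 0.453). Both high values lie in the library with airway transcripts, whose part was not tested. The genes with the lowest p were subunits of the NADPH oxidase, which macrophages share. Ncf1 had 19.6 ± 2.18 CPM in sST2-KO and 44.9 ± 3.87 CPM in WT, which is -1.20 on the log2 scale (SE 0.16, edgeR adjusted p = 0.264), and Cybb had 39.5 ± 20.8 CPM in sST2-KO and 97.96 ± 6.42 CPM in WT (SD, n = 3 each), which is -1.31 on the log2 scale (SE 0.35, edgeR adjusted p = 0.388). DESeq2 called these 2 of the 16 lower, beside 1.47% of all genes. Arg1 had 1.65, 1.68 and 0.399 CPM in sST2-KO replicates 1 to 3, against 1.99, 2.15 and 45.1 CPM in WT replicates 1 to 3, where the high value lies in the library with liver transcripts, whose part was not tested.

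Further surface and cytosolic genes of neutrophils were mostly negative in their changes, with none called by edgeR. Of 31 such genes 24 were tested, 19 had negative log2 changes, 0 passed in edgeR, and the median was -0.99. Of the 24, 8 were lower without overlap and 1 was higher, beside 10% and 9.09% of all tested genes. The lowest p values belonged to Itgam (log2 change -1.34, SE 0.20), Alox5ap (-1.002, SE 0.17), Pirb (-1.32, SE 0.28) and Itgb2 (-0.97, SE 0.30), with edgeR adjusted p of 0.282 to 0.426. All 4 are expressed by macrophages as well. DESeq2 called 3 of the 24 lower, Itgam, Alox5ap and Pirb, beside 1.47% of all genes. Positive changes were found for 5 of the 24. Hdc, the histamine-forming enzyme, had 8.98, 83.7 and 12.2 CPM in sST2-KO replicates 1 to 3, against 7.499, 3.35 and 6.68 CPM in WT replicates 1 to 3, higher without overlap (log2 change 2.57, SE 0.89, edgeR adjusted p = 0.435). Cd177, a surface antigen of neutrophils, had 298 CPM in sST2-KO replicate 2 and 0 to 0.682 CPM in the other sST2-KO libraries, against 0.638 to 2.98 CPM in WT libraries (log2 change 5.96, SE 2.53, edgeR adjusted p = 0.455). Adam8, a membrane protease of leukocytes, had 41.3, 463 and 32.3 CPM in sST2-KO replicates 1 to 3, against 68.3, 63.2 and 59.9 CPM in WT replicates 1 to 3 (log2 change 1.49, SE 0.97, edgeR adjusted p = 0.558). In these 3 the library with airway transcripts was highest, and its part was not tested. The chemokine receptor Cxcr2 had 4.43, 0.643 and 1.197 CPM in sST2-KO replicates 1 to 3, against 4.52, 1.04 and 5.19 CPM in WT replicates 1 to 3. Without sST2-KO replicate 1 the median of the list was -1.47. Cxcr2, Hdc, Cd177, Olfm4, Ltf, Pglyrp1, Prtn3 and Ctsg were chosen after their values were seen.

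In a list of attractants and growth factors of neutrophils, every tested gene had a negative change. The list also holds the receptor genes C5ar1 and Ltb4r1 and the enzyme gene Alox5. Its growth factors Csf3 and Csf2 had too few counts to be tested. Of 16 genes 10 were tested, 10 had negative log2 changes, 0 passed in edgeR, and the median was -1.37. Of the 10 tested, 7 were lower without overlap, beside 10% of all tested genes. Cxcl1 and Cxcl2, ligands of Cxcr2, were among them. Cxcl2 had 0.739, 0.841 and 0.399 CPM in sST2-KO replicates 1 to 3, against 6.62, 5.10 and 6.02 CPM in WT replicates 1 to 3 (log2 change -3.14, SE 0.42, edgeR adjusted p = 0.264). Cxcl1 had 4.72, 3.22 and 4.06 CPM in sST2-KO replicates 1 to 3, against 21.6, 8.61 and 17.7 CPM in WT replicates 1 to 3 (log2 change -2.00, SE 0.40, edgeR adjusted p = 0.339). The log2 change was -3.13 for Il6 (SE 0.67, edgeR adjusted p = 0.339), and -0.68 for Cxcl12, which retains neutrophils in the marrow (SE 0.22, edgeR adjusted p = 0.431). DESeq2 called 3 of the 10 lower, Cxcl1, Cxcl2 and Il6, beside 1.47% of all genes. WT replicate 2, the WT library lowest in S100a8, S100a9 and Csf3r, was also lowest of the WT libraries in Cxcl1 and Cxcl2, yet above every sST2-KO library in both. The median of this list was -0.81 without a low-count filter and -1.16 without sST2-KO replicate 1.

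Adhesion molecules, receptors and transcription factors showed no shared direction. Of 8 adhesion genes all were tested, 0 passed in edgeR, 3 had negative and 5 positive log2 changes, and the median was 0.047, between -0.14 and 0.24 with 1 library left out. Vcam1 had 257 ± 32.02 CPM in sST2-KO and 455 ± 60.7 CPM in WT (SD, n = 3 each), or -0.82 on the log2 scale (SE 0.21), with an adjusted p of 0.386 in edgeR and 0.0114 in DESeq2. Selplg, the selectin ligand on leukocytes, stood at -0.997 on the log2 scale (SE 0.26, edgeR adjusted p = 0.386). Among 9 receptors and partners of the encoded proteins 8 were tested, 0 passed in edgeR, and the median was -0.088, between -0.19 and 0.16 with 1 library left out. Cd33, an inhibitory receptor of myeloid cells, stood at -1.01 on the log2 scale (SE 0.31, edgeR adjusted p = 0.423). Of 9 transcription factors of granulopoiesis 8 were tested, 0 passed in edgeR, and the median was 0.38, or -0.19 without sST2-KO replicate 2. Spi1, which encodes PU.1, had 29.2 ± 6.87 CPM in sST2-KO and 47.1 ± 13.5 CPM in WT (SD, n = 3 each), or -0.69 on the log2 scale (SE 0.28, edgeR adjusted p = 0.445). Cebpb stood at 1.26 (SE 0.62, edgeR adjusted p = 0.486).

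**Figure D4:**
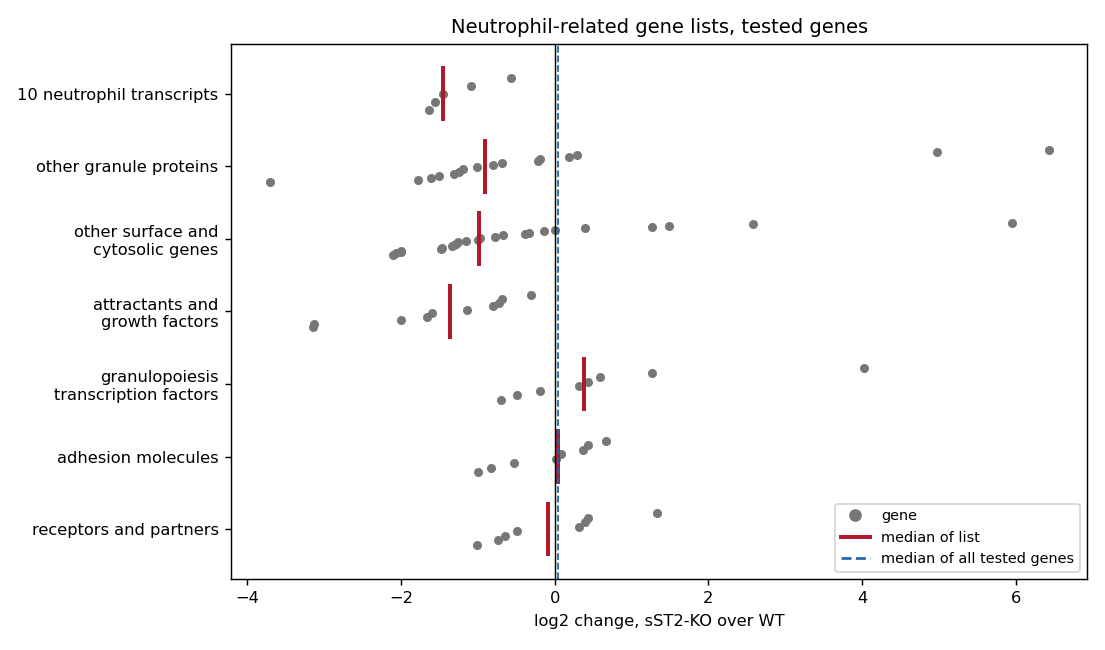
log2 change (sST2-KO over WT) of tested genes in the neutrophil transcripts and the related lists; points are genes, red bars list medians, and the dashed line the median of all tested genes. Medians are -1.46 for the neutrophil transcripts and -1.37 for attractants and growth factors, while adhesion molecules lie at 0.047.

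Markers of other cells also differed between libraries, and their part in the results was not tested. All 9 erythroid markers were tested, 9 had negative log2 changes and 0 passed in edgeR; they summed to 61.7 to 1180 CPM in sST2-KO and 747 to 4775 CPM in WT, with 1 of 9 at 0 counts in sST2-KO replicate 2, 1 in sST2-KO replicate 3 and 1 in WT replicate 2. Of the 9, 4 were highest in WT replicate 1, all of them globin genes, and the other 5 in WT replicate 3. The 10 platelet markers summed to 41.1 to 61.2 CPM in sST2-KO and 89.1 to 134 CPM in WT. Of these, 9 of 9 tested were negative and 6 were lower without overlap, with 0 passing in edgeR and 4 called lower by DESeq2. The 16 macrophage and monocyte markers, all tested, summed to 1014 to 1465 CPM in sST2-KO and 1695 to 2184 CPM in WT. Of the 16, 16 were negative and 8 were lower without overlap, with 0 passing in edgeR and 6 called lower by DESeq2. Over all genes, 10% were lower without overlap and DESeq2 called 1.47% lower. The 12 markers of eosinophils, mast cells and basophils summed to 56.3 to 74.9 CPM in sST2-KO and 52.9 to 64.9 CPM in WT. Brown fat markers summed to 141 to 2425 CPM in sST2-KO and 158 to 305 CPM in WT, and endothelial markers to 791 to 2074 CPM in sST2-KO and 1082 to 1242 CPM in WT.

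**Figure D5:**
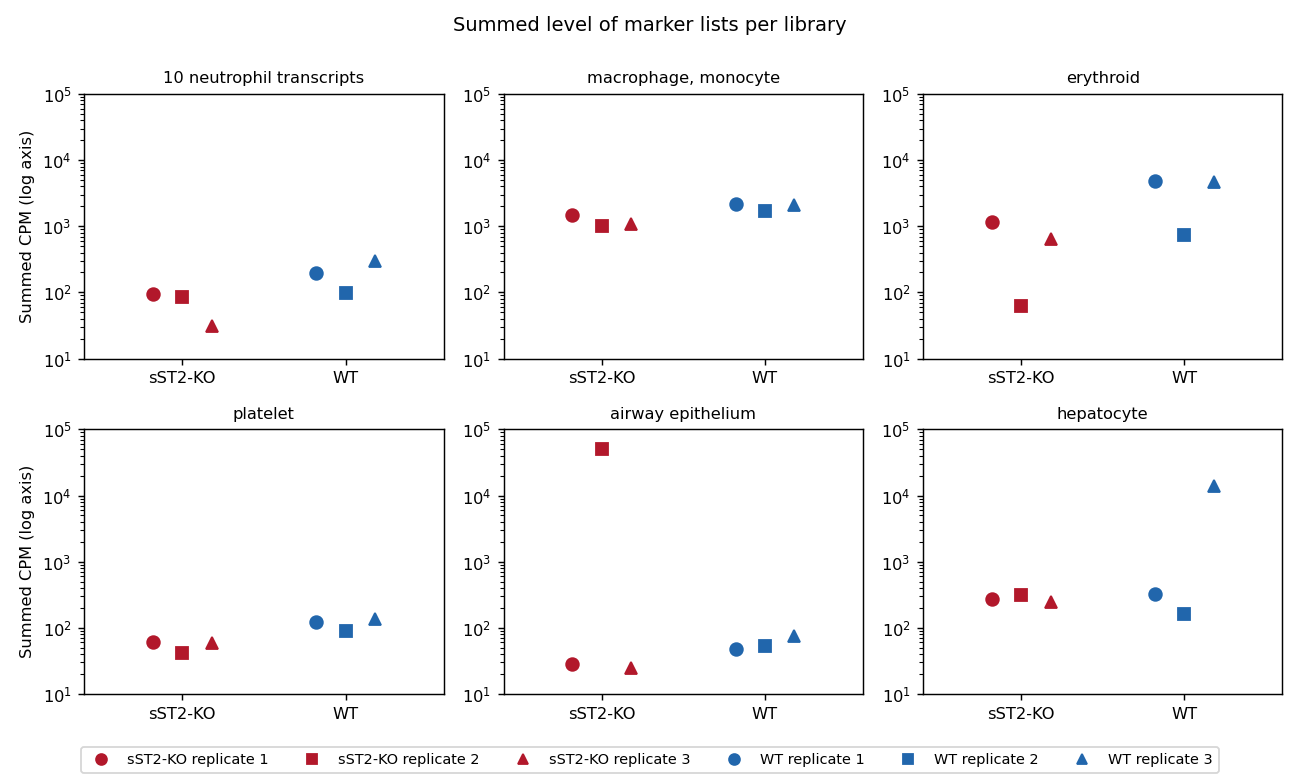
Summed level of the neutrophil transcripts and of 5 marker lists per library, in CPM on a log axis, with sST2-KO left of WT. Airway markers reach 50379 CPM in sST2-KO replicate 2 and hepatocyte markers 13806 CPM in WT replicate 3, and erythroid markers are highest in WT replicates 1 and 3, the libraries that also lead in neutrophil transcripts.

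The tested genes outside these lists whose levels followed the mean of the 5 tested neutrophil transcripts most closely over the 6 libraries were Dhtkd1 (Pearson r = 0.993), Ticrr (0.991), Rasal3 (0.990), Hells (0.989) and Phkg1 (0.989), the top of 13891 protein-coding genes searched. These values describe 6 libraries that share tissue and scaling, and no test was made on them. Hells, a chromatin remodeller of dividing and lymphoid cells, had 3.52, 2.42 and 1.13 CPM in sST2-KO replicates 1 to 3, against 4.69, 2.79 and 6.202 CPM in WT replicates 1 to 3. Rasal3, a Ras GTPase-activating protein of blood cells, had 7.44, 4.70 and 3.13 CPM in sST2-KO replicates 1 to 3, against 9.59, 5.82 and 11.4 CPM in WT replicates 1 to 3. Both placed WT replicate 3 first, WT replicate 1 next and sST2-KO replicate 3 last, and neither passed (edgeR adjusted p = 0.513 and 0.500).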

How the data were processed

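The table that the authors deposited holds unnormalized counts for 6 libraries, by Ensembl gene, beside gene symbols, coordinates and lengths per the file headers. The submitters' processing notes name the build as mm39. Aligner, counter, strand setting and annotation version: not given in the sources used here. Per the labels' protocols, RNA was poly-T selected and cDNA primed with random hexamers. Samples were grouped by their titles, and the series' design text gives 3 mice per group. All 6 value columns matched a sample.

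Counts were tested with edgeR 4.0.16 (R 4.3.3): filterByExpr (minimum count 10, minimum total 15), TMM scaling, glmQLFit and glmQLFTest, Benjamini-Hochberg adjustment over 16377 genes, threshold 0.05. CPM use the fit's effective library sizes. SEs were taken as the absolute log2 change over √F. A positive change means higher in sST2-KO. A count of 0 allows up to 3 counts, or 0.148 to 0.239 CPM by library; intervals and floors cover counting error only. Between same-group libraries, the median squared difference of a gene, scaled to its counting error, was 6.55 to 45.2 times that of counting noise alone.

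The 10 genes and 15 related lists (187 entries, all found) were chosen with earlier results of these data known. The rule for naming took all 10 genes, up to 4 genes of lowest p and up to 2 of the most abundant per list, and the 5 genes of highest correlation with the mean centred log2 CPM (prior count 2) of the tested neutrophil genes. The edgeR step was tested on simulated data. At the dispersion of these libraries it called 2.09% of 2-fold and 72.8% of 8-fold changes. With the dispersion divided by 10 it called 78.4% of 2-fold and 99.7% of 8-fold changes. A gene not called by edgeR here can therefore still differ by 2-fold. Alternatives were DESeq2 1.42.0, limma 3.58.1 (voom, with and without quality weights), scaling by upper quartile or RLE, other filters, protein-coding genes alone, a replicate block, no mitochondrially encoded genes, and leaving out libraries; the sum without Lcn2, and the granule gene means without single libraries, were chosen after seeing the data. Promoter sequences are from RefSeq on GRCm38.p6. Plots were drawn with matplotlib 3.10.9.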

Additional observations from a re-analysis of the deposited data

How the results depend on the processing

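No neutrophil transcript was called under RLE or upper-quartile scaling, DESeq2, limma-voom, no low-count filter, a minimum count of 30, protein-coding genes alone, no mitochondrially encoded genes, or without WT replicate 3 and sST2-KO replicate 2 together. limma-voom with sample quality weights called 1 lower (Lcn2). Over all genes, DESeq2 called 58 higher and 223 lower, and limma-voom with quality weights 8 higher and 35 lower, where edgeR called 0 and 0. Leaving out 1 library at a time gave 0 to 1 lower and 0 to 0 higher genes over all genes, and the call came without sST2-KO replicate 2. It gave 0 to 0 lower neutrophil transcripts and a ratio of summed levels of 0.275 to 0.472. The median of the tested ones went from -2.10 (8 tested, without WT replicate 2) to -0.85 (5 tested, without WT replicate 3). These ends therefore cover different sets of genes. Without WT replicate 3 the log2 change of Retnlg turned to 0.0031 (edgeR adjusted p = 0.9999; its range with 1 library left out was -1.02 to 0.0031); the cause was not tested. With a replicate block the median was -1.43 and 0 genes were called in either direction. The titles' numbers were not taken as pairs, since no label says that they pair animals. Correlations of deviations were 0.145, 0.046 and -0.087 for same-numbered libraries. They were -0.119 to 0.045 for libraries with different numbers. With 3 libraries a group, these values cannot decide whether animals were paired. Depth limits Ly6g, Mpo, Elane, Ngp and Camp, whose counts were too low in most libraries for the test. Without WT replicate 3 the mean levels of Mpo, Elane, Ngp and Camp were higher in sST2-KO, not lower.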
